A study of Homo sapiens with 56 samples.

Results

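PEO1 cells, an established line of high-grade serous ovarian carcinoma that expresses estrogen receptor alpha, were treated for 3 h with an antagonist in the presence of 1 nM estradiol (E2), and the comparison described here sets one antagonist against the other. Its members are the 4 arrays labelled 3 h 4OHT + E2 (1 nM E2 with 1 µM 4-hydroxytamoxifen) and the 4 labelled 3 h ICI+E2 (1 nM E2 with 1 µM ICI, the antagonist fulvestrant), 8 of the 56 Affymetrix expression arrays of the series. The remaining PEO1 groups were 4OHT alone and ICI alone (each at 1 µM), E2 alone (1 nM), ethanol vehicle and untreated cells at 0 h, with 4 arrays each, and the line PEO4 was treated in the same 7 ways. All cells of both lines had first been deprived of hormone for 3 days, in medium free of phenol red and serum stripped with charcoal. The labels do not say whether replicate arrays came from separate cultures, so p-values measure the spread between these arrays, and each line is 1 cell line.

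Estradiol binds estrogen receptor alpha, a nuclear receptor that then recruits coactivators and regulates genes from estrogen response elements or through other transcription factors such as AP-1. 4OHT, formed from tamoxifen in the body, is a nonsteroidal triphenylethylene with a basic side chain and acts as a selective modulator, blocking the receptor at some genes and activating it at others. Fulvestrant is a steroidal analogue of estradiol with a long alkyl sulfinyl side chain, a full antagonist that destabilises the receptor protein. Tamoxifen is also known to act outside the receptor, for example on membranes and kinases.

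The values are log2 expression values (RMA) for 11963 genes, and a difference is given as the log2 value with 4OHT + E2 minus that with ICI + E2, ± SE, from limma over all 28 PEO1 arrays. A gene was called when its Benjamini-Hochberg adjusted p over all genes was under 0.05. Markers fixed for serous ovarian carcinoma cells, PAX8, WT1, MUC16, EPCAM, MSLN, CDH1, ESR1 and the keratins KRT7, KRT8 and KRT18, had group means between 10.25 and 13.82 with 4OHT + E2 and between 10.11 and 13.8 with ICI + E2, and 0 of 10 were called. Of the measured markers of stromal fibroblasts (7), leukocytes (4), endothelium (4), hepatocytes (5) and neural cells (5), 0 were called, and their group means lay between 2.45 and 8.25. RMA values carry no detection calls, so whether such low levels are background cannot be stated. The summed level of these lists lay on overlapping ranges in both groups, for example 9.08 to 9.24 with 4OHT + E2 and 8.95 to 9.13 with ICI + E2 for the stromal list. The ACTB 3' minus 5' difference, a sign of RNA integrity, was -0.113 to 0.142 on the 4OHT + E2 arrays and -0.254 to 0.061 on the ICI + E2 arrays.

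With estradiol present, 4OHT-treated cells held more mRNA of many immediate early and chemokine genes and of the growth factors EREG and HBEGF than ICI-treated cells, and slightly less mRNA of many other genes, cell cycle genes among them. limma called 501 of 11963 genes (4.19%), 185 higher with 4OHT + E2 (1.55% of all genes) and 316 lower (2.64%). The larger differences ran upward: 19 genes were higher by at least 1.5-fold and 0 were lower by as much, and 5 were higher by at least 2-fold. The median difference over all genes was -0.017, and 90% of genes lay between -0.18 and 0.18. The count of small decreases depended on the fit, as 63 genes were called higher and 26 lower when the spread came from these 8 arrays alone, and after a further quantile normalization 255 were higher and 171 lower. Leaving out 1 array gave 220 genes (without ICI + E2 array C) to 1042 (without 4OHT + E2 array C). The count was also over 1.5 times off without ICI + E2 A (267) or B (330) and without 4OHT + E2 B (253) or D (312).

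**Figure D1:**
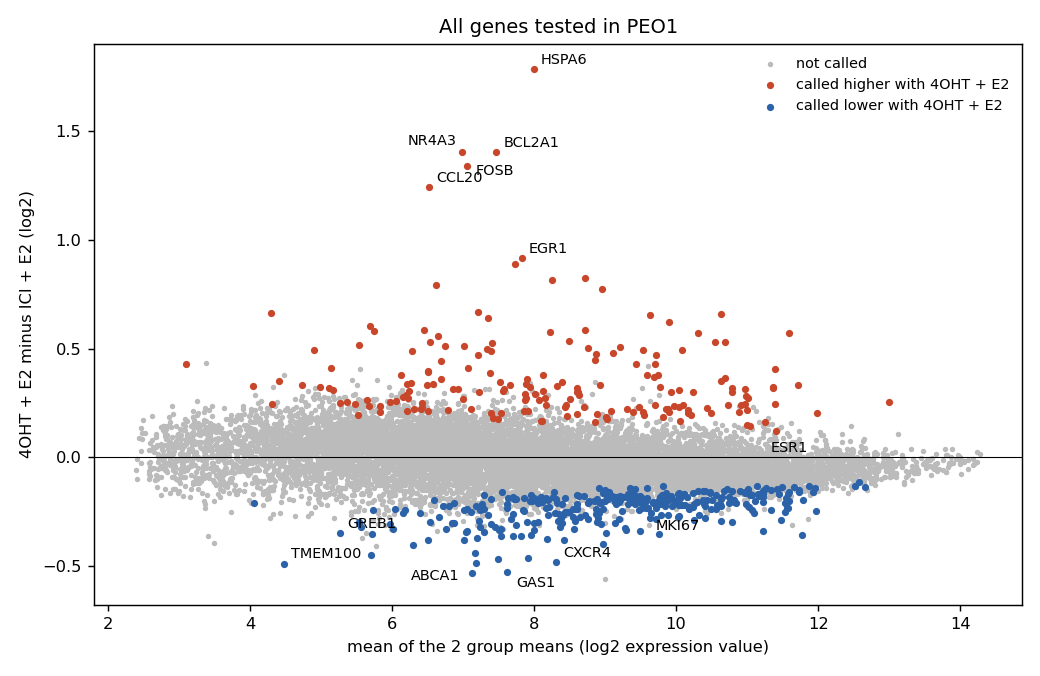
Difference between 4OHT + E2 and ICI + E2 (y axis, log2) against the mean of both group means (x axis, log2 expression value) for all 11963 genes in PEO1, with called genes in colour. The 5 genes above 2-fold, led by HSPA6 at 1.79, stand apart upward, whereas the 316 called decreases lie within 0.53 below 0.

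The gene that differed most was HSPA6, a stress-inducible member of the HSP70 chaperone family. It stood at 9.10, 8.53, 8.64 and 9.30 on the 4OHT + E2 arrays, against 7.19, 6.77, 7.24 and 7.21 on the ICI + E2 arrays. The groups did not overlap, as was so for 10.8% of all genes (3.75% with the 4OHT + E2 arrays higher and 7.03% with them lower), and the difference was 1.79 ± 0.18 (3.45-fold, limma adjusted p = 2.14e-06). A second HSPA6 probe set gave 1.02 ± 0.12. HSPA6 was the only called member among 18 measured genes of the heat shock list (1.55% of all genes were called higher). The others lay between -0.14 and 0.07, including the cochaperones DNAJB1 (0.01) and BAG3 (-0.02) and HSPH1 (-0.02). HSPB8, a small heat shock protein placed on the estrogen-induced list instead, was called higher (0.41 ± 0.08, adjusted p = 0.00152). The HSP70 genes HSPA1A and HSPA1B were not analysed here.

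Promoter sequences of HSPA6 and of members of the immediate early and chemokine genes described next are shown because they carry the short motifs by which these classes are known to be switched on. Each line is the 250 bases before the gene start, 5′ to 3′ on the gene's strand, from RefSeq (GRCh38.p14), with motif matches in capitals. The window of HSPA6 (chr1:161524290-161524539, plus strand) has a heat shock element and AP-1 sites in capitals, that of NR4A3 (chr9:99821635-99821884, plus strand) the core of the cyclic AMP response element (CRE), that of EGR1 (chr5:138465229-138465478, plus strand) CArG boxes, bound by serum response factor, and CRE cores, and that of CXCL2 (chr4:74099196-74099445, minus strand) a kappaB site and a CRE core.
HSPA6: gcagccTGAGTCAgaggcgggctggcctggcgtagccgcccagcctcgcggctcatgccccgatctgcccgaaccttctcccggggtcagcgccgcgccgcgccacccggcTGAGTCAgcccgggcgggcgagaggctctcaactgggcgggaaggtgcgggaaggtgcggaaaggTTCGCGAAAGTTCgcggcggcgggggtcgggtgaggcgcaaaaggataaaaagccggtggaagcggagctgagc
NR4A3: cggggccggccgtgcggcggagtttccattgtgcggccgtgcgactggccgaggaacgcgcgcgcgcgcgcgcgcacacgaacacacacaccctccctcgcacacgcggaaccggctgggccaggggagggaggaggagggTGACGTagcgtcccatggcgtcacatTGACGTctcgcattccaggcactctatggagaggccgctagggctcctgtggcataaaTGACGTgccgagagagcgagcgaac
EGR1: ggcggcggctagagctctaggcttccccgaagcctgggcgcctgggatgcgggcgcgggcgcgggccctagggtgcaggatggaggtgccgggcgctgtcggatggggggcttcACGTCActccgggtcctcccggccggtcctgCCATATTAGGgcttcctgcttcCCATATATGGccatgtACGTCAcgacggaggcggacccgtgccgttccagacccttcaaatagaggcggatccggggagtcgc
CXCL2: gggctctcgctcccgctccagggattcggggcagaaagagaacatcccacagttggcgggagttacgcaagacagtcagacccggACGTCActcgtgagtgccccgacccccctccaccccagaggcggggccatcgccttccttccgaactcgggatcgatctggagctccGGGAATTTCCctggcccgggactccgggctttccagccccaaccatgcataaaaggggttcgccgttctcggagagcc

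The motifs were searched on both strands as TGACGT (CRE core), TGANTCA (AP-1 site), CCATAT and GG with any 2 bases between (CArG box), and GGG, TT and CC with any 2 bases after GGG and any 1 after TT (kappaB site). The heat shock element was searched as GAA, TTC and GAA with any 2 bases between neighbours, and the estrogen response element as GGTCA and TGACC with any 3 bases between. Among all 35116 RefSeq windows, 7.1% held the CRE core, 0.305% the CArG box, 5.07% the kappaB site, 0.441% the heat shock element, 6.57% the AP-1 site and 0.0399% the estrogen response element. Of the 19 genes higher by at least 1.5-fold, 14 had a window, and 7 of these held the CRE core (AVPI1, CXCL2, EGR1, FOS, FOSB, NR4A3 and SLC19A2). The kappaB site was found in 3 (CCL20, CXCL2 and CXCL3), the CArG box, the heat shock element and the AP-1 site in 1 each, and the estrogen response element in 0. Among 9563 tested genes with a window 12.1% held the CRE core, 21.4% of the 145 called higher did, and 11.7% of the 274 called lower did. The kappaB site was held by 9.66% of those called higher, 8.39% of those called lower and 7.78% of tested genes, and the AP-1 site by 9.66%, 6.2% and 7.13%. Of tested genes 0.418% held the CArG box, 0.512% the heat shock element and 0.0314% the estrogen response element. In NR4A3 the CRE core occurred at -109 to -104, -83 to -78 and -25 to -20, counted in bases before the start. In EGR1 the CArG boxes lay at -105 to -96 and -83 to -74. In HSPA6 the heat shock element lay at -74 to -62, and in CXCL2 the kappaB site at -78 to -69. A match describes these letters only and was not tested as a binding site.

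Immediate early genes, which are transcribed within minutes of growth factor or stress signalling without new protein synthesis, were higher with 4OHT + E2. Of 25 measured members of the list 14 were called higher and 0 lower, against 1.55% higher among all genes, with a list median of 0.33 against -0.017 over all genes. Members called were FOS, FOSB, FOSL1, JUND, EGR1, EGR3, ATF3, IER3, NR4A1, NR4A2, NR4A3, PHLDA1, MAFF and ARC. NR4A3, an orphan nuclear receptor, stood at 7.59, 7.83, 7.50 and 7.83 with 4OHT + E2, against 6.34, 6.20, 6.22 and 6.37 with ICI + E2. Every 4OHT + E2 array was more than 1 unit above the ICI + E2 arrays, and the difference was 1.40 ± 0.15 (2.65-fold, adjusted p = 3.75e-06). Its relatives NR4A2 (0.64 ± 0.12) and NR4A1 (0.33 ± 0.06) were called as well.

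The AP-1 subunit FOSB stood at 7.18, 7.32, 7.69 and 8.70 with 4OHT + E2, against 6.30, 6.30, 6.30 and 6.62 with ICI + E2. Array D was highest in both groups, and the groups did not overlap (1.34 ± 0.21, adjusted p = 0.000346). FOS, a second AP-1 subunit, stood at 7.96, 7.95, 8.05 and 8.74 with 4OHT + E2, against 7.36, 7.27, 7.24 and 7.27 with ICI + E2 (0.89 ± 0.14, adjusted p = 0.000251). The zinc finger factor EGR1 showed the same high array D, with 7.87, 8.0, 8.22 and 9.05 against 7.37, 7.46, 7.26 and 7.39 in ICI + E2 cells (0.92 ± 0.18, adjusted p = 0.00265). With only these 8 arrays in the fit FOSB and EGR1 missed the threshold (adjusted p = 0.0548 and 0.0819). ATF3, a stress-induced bZIP factor, had 9.13, 9.27, 9.30 and 9.68 with 4OHT + E2, against 8.55, 8.42, 8.64 and 8.68 with ICI + E2, a difference of 0.77 ± 0.11 (adjusted p = 0.000118). JUND differed less but evenly between arrays (0.33 ± 0.04, adjusted p = 3.13e-05). Not called were JUN (0.14), JUNB (-0.01), SRF (0.05), IER2 (0.01), ZFP36 (0.05) and CCN1 (-0.04).

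Against E2 alone, 14 of the 25 genes were called higher with 4OHT + E2, and with ICI + E2 FOSL2 and KLF6 were called higher and FOS and EGR3 lower. FOS differed from the E2 group by 0.22 with 4OHT + E2 (adjusted p = 0.318) and by -0.67 with ICI + E2 (adjusted p = 0.00337). EGR3 gave 0.01 (adjusted p = 0.957) and -0.59 (adjusted p = 0.00581). NR4A3 and FOSB stood above the E2 group with 4OHT + E2, by 1.77 and 1.57, and differed by 0.37 and 0.23 with ICI + E2, not called. These comparisons share the E2 arrays. Over all genes 12.7% were called between 4OHT + E2 and E2 (4.26% higher and 8.48% lower) and 2.5% between ICI + E2 and E2 (0.97% higher and 1.53% lower).

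Feedback regulators of MAP kinase signalling followed in part. Of 14 measured members 3 were called higher and 0 lower (median 0.11), against 1.55% higher and 2.64% lower over all genes. DUSP4, a nuclear phosphatase of ERK, stood at 10.70, 10.60, 10.49 and 10.60 with 4OHT + E2, against 10.05, 9.90, 10.12 and 10.02 with ICI + E2 (0.57 ± 0.07, adjusted p = 8.48e-06). DUSP5 (0.49 ± 0.06, adjusted p = 1.74e-05) and DUSP1 (0.38 ± 0.07, adjusted p = 0.00297) were also higher. DUSP6 (-0.02), SPRY2 (-0.02), SPRY4 (0.13) and ETV4 (-0.04) were not called.

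The NF-kB and cytokine list holds subunits and inhibitors of this inflammatory transcription factor and its targets. It had 11 of 25 members called higher and 0 lower (median 0.19), against 1.55% higher and 2.64% lower over all genes. Among subunits and inhibitors NFKB1 (0.43 ± 0.05, adjusted p = 2.46e-05) and the deubiquitinase gene TNFAIP3 (0.25 ± 0.06, adjusted p = 0.0118) were called, whereas RELA (0.08), RELB (0.19), REL (0.12), NFKB2 (0.18) and NFKBIA (0.01) were not. BCL2A1, an anti-apoptotic BCL2 relative and NF-kB target, stood at 8.39, 8.32, 8.07 and 7.89 with 4OHT + E2, against 6.69, 6.49, 6.85 and 7.01 with ICI + E2. That is 1.41 ± 0.14 (2.65-fold, adjusted p = 2.14e-06), and it was the only called member of 14 in the BCL2 family, where BCL2 (0.09), BCL2L1 (-0.03) and MCL1 (-0.10) were not called.

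Chemokine genes made up most of the other calls on that list. CCL20, a ligand of CCR6, stood at 7.28, 7.42, 7.06 and 6.81 with 4OHT + E2, against 5.82, 5.88, 5.84 and 6.05 with ICI + E2 (1.24 ± 0.15, adjusted p = 1.09e-05). CXCL2, a neutrophil attractant, had 9.25, 9.11, 8.91 and 9.23 against 8.30, 8.32, 8.26 and 8.30 in ICI + E2 cells (0.83 ± 0.11, adjusted p = 4.54e-05). CXCL3 (0.67), CXCL8 (0.53), CCL2 (0.53) and CXCL1 (0.33) were called too, as were the adhesion gene ICAM1 (0.45) and TNFAIP2 (0.31). CXCL1, CXCL2 and CXCL3 are near-identical copies, so their probe sets may cross-hybridise. IL6 (0.19), TNF (-0.01), IL1A (0.02) and IL1B (0.08) were not called.

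Among growth factor ligands, EREG and HBEGF, which activate the EGF receptor, were higher. EREG stood at 7.10, 6.96, 7.13 and 6.85 with 4OHT + E2, against 6.25, 6.0, 6.27 and 6.34 with ICI + E2 (0.79 ± 0.10, adjusted p = 3.45e-05). HBEGF stood at 10.76, 10.87, 10.87 and 10.75, against 10.27, 10.25, 10.23 and 10.38 with ICI + E2 (0.53 ± 0.06, adjusted p = 4.97e-06). Other members of this list of 19 were not called, the receptors EGFR (0.04) and ERBB2 (-0.02) included, except FGFR2, which was lower (-0.21 ± 0.05, adjusted p = 0.0105, but 0.0758 after quantile normalization and 0.102 with only the compared arrays in the fit). Outside the lists, CALCB, a calcitonin gene-related peptide, had 8.91, 8.71, 8.57 and 8.46 with 4OHT + E2, against 7.91, 7.71, 7.87 and 7.88 with ICI + E2 (0.82 ± 0.11, adjusted p = 4.45e-05).

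**Figure D2:**
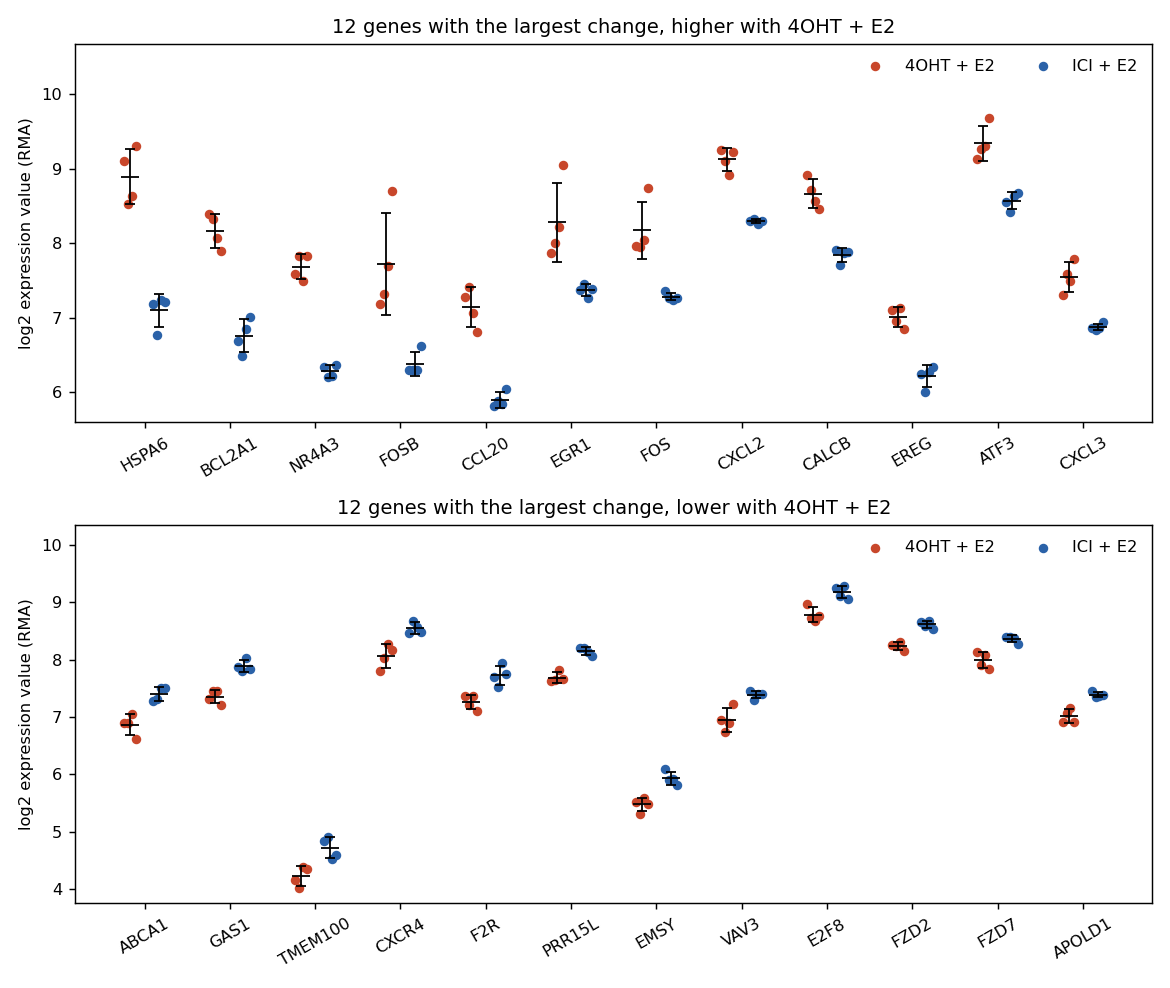
Log2 expression value (y axis) of the 12 genes with the largest increase (upper panel) and the 12 with the largest decrease (lower panel) on each PEO1 array, 4OHT + E2 in red left of ICI + E2 in blue, with mean and SD. These genes were chosen for groups that do not overlap, so the 4 arrays of one group lie wholly above the 4 of the other, and the distances are larger in the upper panel.

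Decreases with 4OHT + E2 were smaller and of mixed function. ABCA1, which exports cholesterol from cells, stood at 6.89, 6.90, 7.05 and 6.62 with 4OHT + E2, against 7.28, 7.31, 7.51 and 7.50 with ICI + E2 (-0.53 ± 0.08, adjusted p = 0.000265). CXCR4, the receptor of the chemokine CXCL12, stood at 7.80, 8.02, 8.28 and 8.17, against 8.46, 8.68, 8.57 and 8.49 with ICI + E2 (-0.48 ± 0.08, adjusted p = 0.000286). Both differed from E2-alone cells with 4OHT + E2 (-0.61 and -0.47) and not with ICI + E2 (-0.08 and 0.02, not called). The thrombin receptor gene F2R was lower by 0.47 on the log2 scale (-0.47 ± 0.10), the guanine nucleotide exchange factor VAV3 by -0.44 ± 0.09, the atypical E2F repressor E2F8 by -0.40 ± 0.08 and the Wnt receptor FZD2 by -0.38 ± 0.06. PRR15L had one of the steadiest decreases, with 7.62, 7.64, 7.82 and 7.67 against 8.20, 8.20, 8.13 and 8.06 in ICI + E2 cells (-0.46 ± 0.05, adjusted p = 4.21e-06). TMEM100 (-0.49 ± 0.12, adjusted p = 0.0183) missed the threshold without ICI + E2 A or B or 4OHT + E2 A or B (adjusted p = 0.0712, 0.0673, 0.0509 and 0.087) and with only the compared arrays in the fit (0.0642). CXCR4 and VAV3 missed it only in that last fit (adjusted p = 0.0509 and 0.0579).

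Some cell cycle genes were lower, by small amounts. In bulk RNA, fewer cells in a phase of the cycle and less RNA per cell cannot be told apart. Of 21 mitosis genes 10 were called lower and 0 higher (2.64% of all genes were called lower), with a median of -0.19. The kinase AURKA stood at 10.95, 10.95, 11.03 and 10.89 with 4OHT + E2, against 11.25, 11.21, 11.21 and 11.11 with ICI + E2 (-0.24 ± 0.04, adjusted p = 0.00135). The proliferation marker MKI67 had 9.39, 9.43, 9.59 and 9.54 against 9.72, 9.71, 9.74 and 9.72 in ICI + E2 cells (-0.23 ± 0.05, adjusted p = 0.00459). CENPE missed the threshold without ICI + E2 C or 4OHT + E2 A or B (adjusted p = 0.0644, 0.0512 and 0.0516) and TOP2A without ICI + E2 C or 4OHT + E2 D (0.0696 and 0.056). Others called were BUB1, BUB1B, CDC20, CDK1, CENPE, CENPF, TOP2A and TTK, between -0.27 and -0.16. Of 25 G1/S and DNA replication genes 7 were called lower and 0 higher (median -0.10), led by the ribonucleotide reductase subunit RRM1 (-0.25 ± 0.05) and the origin recognition gene ORC1 (-0.28 ± 0.05). CCND1 (0.04), CCNE1 (0.09), E2F1 (0.12) and PLK1 (-0.01) were not called.

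These cell cycle calls depended on the fit. With only the 8 arrays in the fit, 0 mitosis and 0 G1/S genes were called, at the same medians, whereas 10 immediate early and 9 NF-kB list genes were. Leaving out 1 array gave 3 mitosis genes (without ICI + E2 C) to 12 (without 4OHT + E2 C). It was 5 without ICI + E2 A, 4OHT + E2 B or 4OHT + E2 D, and 6 without 4OHT + E2 A. For the G1/S list it gave 3 genes (without ICI + E2 B or C, or 4OHT + E2 A or B) to 8, and 4 without ICI + E2 A or 4OHT + E2 D. Quantile normalization gave 8 and 3, with medians of -0.14 and -0.05. The immediate early count stayed between 13 and 15 and the NF-kB count between 10 and 11 without any 1 array, and with the dimmest 40% of genes left out 9 of 19 and 8 of 17 members were called. Ribosome biogenesis genes, 17 measured, held 0 calls.

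**Figure D3:**
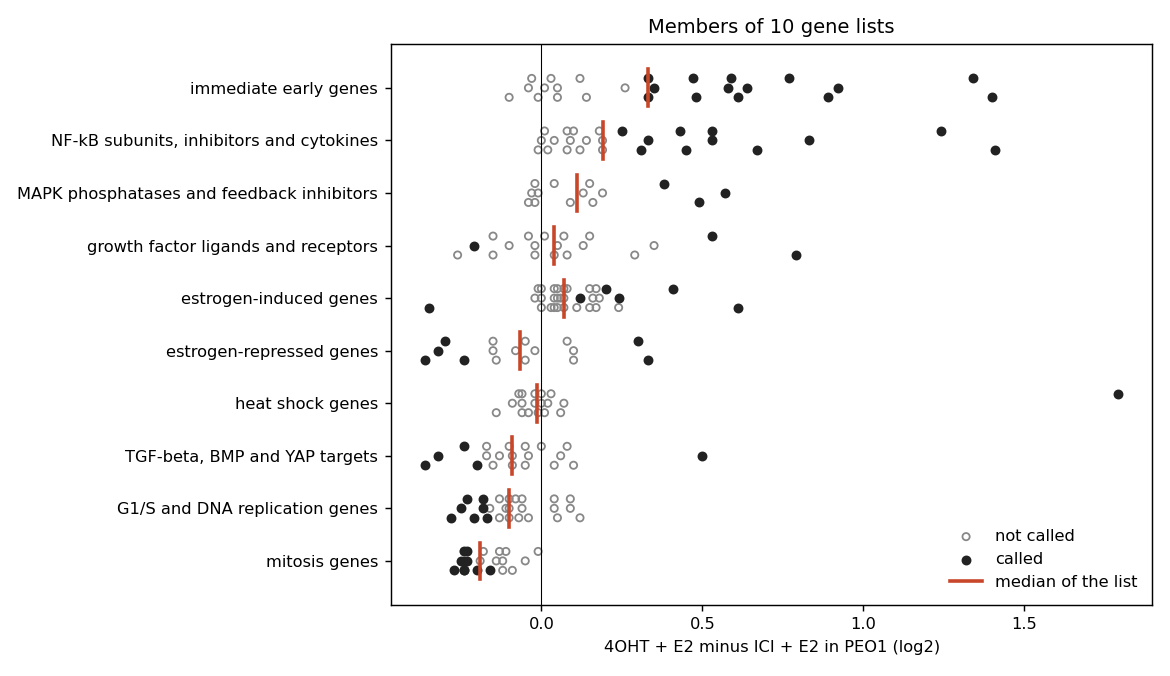
Difference between 4OHT + E2 and ICI + E2 in PEO1 (x axis, log2) for each measured member of 10 gene lists (rows), filled where called, with a red bar at the list median. The immediate early and NF-kB lists reach up to 1.41 with no called decrease, and the mitosis members lie between -0.27 and -0.01.

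The mRNA of estrogen receptor alpha itself differed little between the antagonists. ESR1, which encodes the receptor, stood at 11.24, 11.21, 11.21 and 11.24 with 4OHT + E2, against 11.21, 11.21, 11.26 and 11.23 with ICI + E2. The groups overlapped (adjusted p = 0.993), and the 95% interval of the difference was -0.07 to 0.07, which concerns mRNA only and not receptor protein. PGR, the progesterone receptor and a classical target in breast cancer cells, had means of 3.28 with 4OHT + E2 and 3.12 with ICI + E2 (0.15 ± 0.08, adjusted p = 0.275, interval -0.02 to 0.32). IGFBP3, which binds insulin-like growth factors, gave -0.14 ± 0.05 (adjusted p = 0.115, interval -0.25 to -0.03), while its second probe set was called lower (-0.20 ± 0.05, adjusted p = 0.0129 over all probe sets). The pioneer factor FOXA1 was higher, with 7.81, 7.61, 7.34 and 7.58 against 7.10, 7.03, 7.11 and 7.11 in ICI + E2 cells (0.50 ± 0.08, adjusted p = 0.000206). GATA3, which cooperates with the receptor in breast cells, was slightly lower (-0.17 ± 0.04, adjusted p = 0.0118), but not with arrays centred on their medians (adjusted p = 0.0502), without ICI + E2 C (0.0644) or with only the compared groups (0.152).

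GREB1, an estrogen receptor target and cofactor, had the largest E2 response in this line (1.97 over vehicle). The means of both antagonist groups lay below the vehicle mean of 5.77, a difference that was not tested. GREB1 stood at 5.08, 4.92, 5.24 and 5.11 with 4OHT + E2, against 5.61, 5.36, 5.53 and 5.24 with ICI + E2. Vehicle arrays stood at 5.53 to 6.01 and overlapped the ICI + E2 arrays. The ranges met at 5.24 to 2 decimals, and the difference was -0.35 ± 0.09 (adjusted p = 0.0309). The call did not hold with only the compared groups (adjusted p = 0.112) or without ICI + E2 A (0.122) or C (0.114), or 4OHT + E2 A (0.0607), B (0.126) or D (0.0579). The other GREB1 probe sets gave 0.10 ± 0.07 and 0.08 ± 0.09, not called. Without E2 the antagonists differed there by -0.06, not called.

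Most of the strongest E2 responses were not called different between the antagonists, and the intervals bound how far they could differ. CA12, a membrane carbonic anhydrase, had 8.73, 8.74, 8.74 and 8.81 with 4OHT + E2, 8.79, 8.83, 8.69 and 8.81 with ICI + E2, and means of 9.83 with E2 and 8.80 with vehicle. The antagonists differed there by -0.02 ± 0.05 (adjusted p = 0.81, interval -0.13 to 0.08). The adhesion gene CADM1 gave -0.04 (interval -0.14 to 0.06), the amino acid transporter SLC7A2 0.00 (-0.20 to 0.20), PLAT, tissue plasminogen activator, -0.10 (-0.21 to 0.02), and IL12A 0.17 (-0.01 to 0.36), none of them called. ARHGAP26 gave -0.20 (-0.32 to -0.08, adjusted p = 0.0515) and the mTOR inhibitor DEPTOR -0.20 (-0.37 to -0.04, adjusted p = 0.137). Among the largest E2 decreases, ARID5B (0.07), DLX2 (-0.12) and TOX (-0.21) were not called.

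Some E2-responsive genes did differ between the antagonists. E2 changed 2.09% of all genes over vehicle. It raised 187 genes (1.56% of all genes). Of these, 20 were called higher with 4OHT + E2 (10.7%, against 1.55% of all genes) and 3 lower, FLG, OVOL2 and GREB1. The median difference of the 187 genes was -0.002, against -0.017 over all genes. Calls lower numbered 0 (without ICI + E2 C) to 10 (without 4OHT + E2 C), with 1 without ICI + E2 A, 4OHT + E2 A or 4OHT + E2 B, 2 without 4OHT + E2 D and 5 without ICI + E2 D. Of the 63 genes that E2 lowered (0.527%), 14 were called lower (22.2%, against 2.64% of all genes) and 3 higher, SAMD4A, PLAUR and SLC2A3, at a median of -0.033. With only the compared arrays in the fit the counts were 8 and 6. Without 1 array they were 16 to 20 and 7 to 16, the decreases numbering 7 without 4OHT + E2 B and 8 without ICI + E2 C. The E2 comparison shares no array with that of the antagonists, but both took each gene's spread from the same fit. A gene of small spread was thus easier to call in both, so the shares of 10.7% and 22.2% are not from independent tests. How far the shared spread raised them was not tested.

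SLC19A2, a thiamine transporter gene, stood at 10.54, 10.38, 9.94 and 9.98 with 4OHT + E2, against 9.58, 9.43, 9.74 and 9.60 with ICI + E2, with means of 10.33 for E2 and 9.69 for vehicle. Arrays A and B of the 4OHT + E2 group lay at the E2 level and all ICI + E2 arrays near vehicle, and the antagonists differed by 0.62 ± 0.09 (adjusted p = 0.00011). PLPP3, a lipid phosphate phosphatase gene, had 9.80, 9.98, 9.99 and 9.88 against 9.49, 9.42, 9.49 and 9.54 in ICI + E2 cells, with 9.94 for E2 and 9.52 for vehicle (0.43 ± 0.06, adjusted p = 0.000118). OSBPL3, an oxysterol-binding protein relative, was intermediate with 4OHT + E2, at 8.64 ± 0.05 and 8.38 ± 0.04 with ICI + E2, between 8.97 for E2 and 8.20 for vehicle (0.27 ± 0.04, adjusted p = 0.000274). The potassium channel gene KCNF1 stood below E2 cells with both, at 8.02 ± 0.09 with 4OHT + E2 and 7.75 ± 0.02 with ICI + E2 beside an E2 mean of 8.88 (0.28 ± 0.06, adjusted p = 0.00546). MYC, whose product drives growth, stood below E2 cells in both groups (-0.39 with 4OHT + E2 and -0.59 with ICI + E2). It had 12.11, 12.07, 12.06 and 12.08 with 4OHT + E2, against 11.90, 11.88, 11.87 and 11.86 in ICI + E2 cells (0.20 ± 0.04, adjusted p = 0.00304). Vehicle arrays of MYC, at 12.22, 12.20, 12.25 and 12.26, lay above all arrays of both antagonist groups. With only the compared arrays in the fit MYC (adjusted p = 0.0576) and KCNF1 (0.0509) missed the threshold. SLC19A2 and PLPP3 lie outside the naming rule and were chosen after their values were seen.

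Among genes that E2 lowers, GAS1, a growth arrest gene, was lower with 4OHT + E2. It stood at 7.32, 7.45, 7.45 and 7.20 with 4OHT + E2, against 7.87, 7.80, 8.03 and 7.83 with ICI + E2, beside means of 7.35 for E2 and 7.82 for vehicle (-0.53 ± 0.07, adjusted p = 4.45e-05). The 4OHT + E2 arrays were at the E2 level and the ICI + E2 arrays at the vehicle level. The Wnt receptor FZD7 had 8.14, 7.91, 8.08 and 7.83 against 8.40, 8.40, 8.38 and 8.28 in ICI + E2 cells, with 7.83 for E2 and 8.24 for vehicle (-0.38 ± 0.07, adjusted p = 0.00323). BMP4, a bone morphogenetic protein, gave -0.32 ± 0.07 (adjusted p = 0.0118, and 0.0533 and 0.0588 without ICI + E2 B or 4OHT + E2 B), whereas BMP2, which E2 raises, gave 0.50 ± 0.07 (adjusted p = 0.000118).

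**Figure D4:**
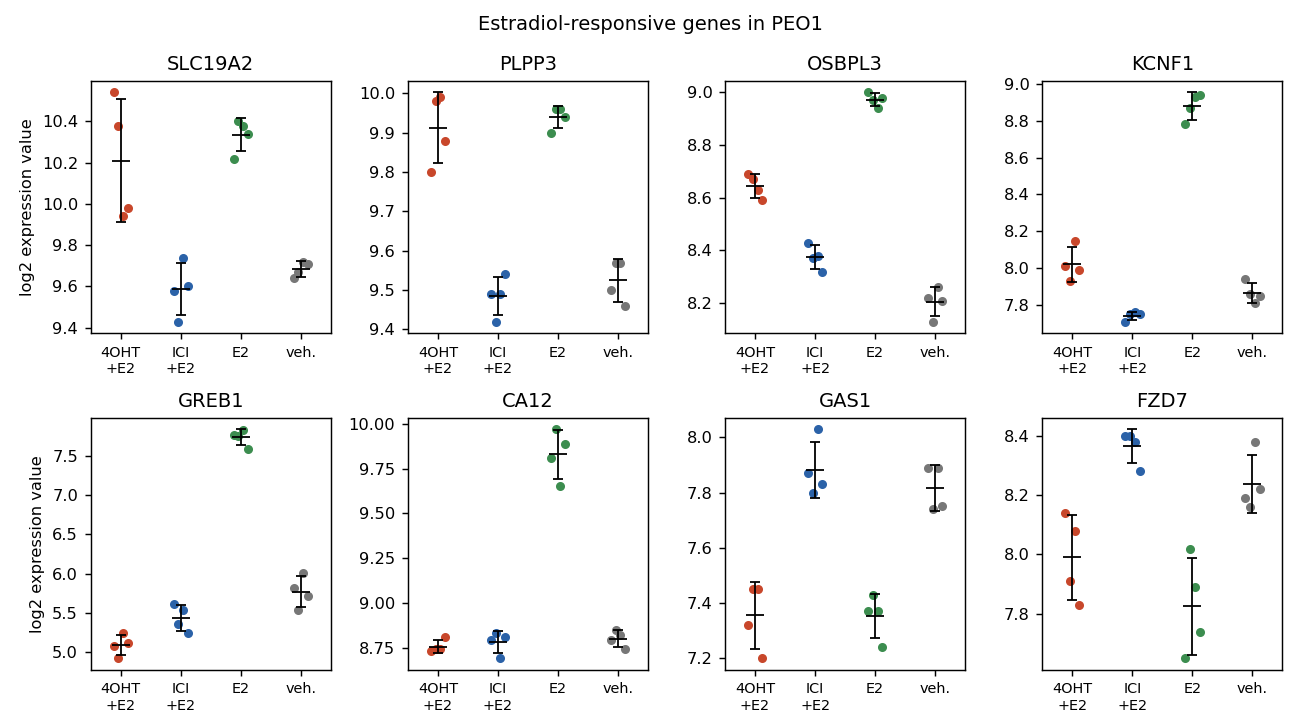
Log2 expression value (y axis) of 8 estradiol-responsive genes on single PEO1 arrays in 4OHT + E2, ICI + E2, E2 and vehicle groups, with mean and SD. PLPP3 and GAS1 lie near E2 under 4OHT + E2 and near vehicle under ICI + E2. The 4OHT + E2 arrays of SLC19A2 and FZD7 spread between both levels. CA12 lies near vehicle under both, and the GREB1 means of both antagonist groups lie below the vehicle mean.

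The fixed lists of estrogen targets, assembled from other cells, gave a mixed picture, beside 1.55% of all genes called higher and 2.64% lower. Of 31 measured estrogen-induced genes 5 were higher, EGR3, HSPB8, IGFBP4, MYC and TIPARP, and 1 lower, GREB1 (median 0.07). The count of increases was 1 with only the compared arrays in the fit, 8 after quantile normalization, and 3 without ICI + E2 A or C or 4OHT + E2 B. HSPB8, a small heat shock protein, had 7.27, 7.39, 7.14 and 7.30 against 6.84, 6.79, 6.95 and 6.89 in ICI + E2 cells (0.41 ± 0.08, adjusted p = 0.00152). TIPARP (0.12 ± 0.03, adjusted p = 0.0483) lost the call without any 1 of the 8 arrays except ICI + E2 D (adjusted p = 0.0713 to 0.127). IGFBP4 (0.24 ± 0.06, adjusted p = 0.0183) lost it without ICI + E2 A (0.0513) or C (0.0982) or 4OHT + E2 B (0.0705). TFF1 (0.24), XBP1 (0.05), CCND1 (0.04), NRIP1 (0.17) and STC2 (0.17) were not called. Of 16 estrogen-repressed genes 4 were lower, ID2, BMP4, CCNG2 and NR3C2, and 2 higher, KLF4 and CDKN1A. Decreases numbered 2 with only the compared arrays in the fit or without 4OHT + E2 B, and increases 1 in that fit and without ICI + E2 C or 4OHT + E2 B or D. CCNG2 missed the threshold without ICI + E2 C or 4OHT + E2 B (adjusted p = 0.0514 and 0.0589), and CDKN1A without ICI + E2 C or 4OHT + E2 B or D (0.0741, 0.0556 and 0.0617). ID2, an inhibitor of DNA binding, gave -0.36 ± 0.06 (adjusted p = 0.000465). KLF4, a reprogramming factor that E2 raises in these cells (0.50), gave 0.33 ± 0.06 (adjusted p = 0.00145). With only the compared arrays in the fit KLF4 (0.0987), EGR3 (0.0839), CCNG2 (0.101) and NR3C2 (0.0819) missed the threshold.

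Stress and metabolic lists held few calls, where 1.55% of all genes were called higher and 2.64% lower. Single calls are therefore given for the gene and not for its list. HMOX1, heme oxygenase, was higher (0.48 ± 0.09, adjusted p = 0.00136) and the only call among 15 NRF2 genes, NQO1 lying at -0.08. Among 24 genes of the unfolded protein and integrated stress response the chaperone DNAJB9 was called (0.23 ± 0.05, adjusted p = 0.00828), with HSPA5 at -0.06 and ATF4 at 0.01. Among 18 cholesterol synthesis genes 1 was called, INSIG1 (0.27 ± 0.08, adjusted p = 0.046), which failed without any 1 array except 4OHT + E2 C (0.0506 to 0.149) and with only the compared arrays in the fit (0.183). Both other INSIG1 probe sets were called higher (0.34 and 0.23, adjusted p = 0.00225 and 0.0333 over all probe sets). HMGCS1 (0.08) and SQLE (0.04) were not called. Of 16 p53 targets CDKN1A and TNFRSF10B were called and MDM2 was not (0.04). TNFRSF10B missed the threshold without ICI + E2 B or C or 4OHT + E2 A or B (adjusted p = 0.0575, 0.0727, 0.0803 and 0.0642). Of 18 interferon-stimulated genes IFIT1 was lower (-0.33) and IRF9 higher (0.22). With only the compared arrays in the fit HMOX1 (adjusted p = 0.0892), DNAJB9 (0.0691), TNFRSF10B (0.162), IFIT1 (0.0779) and IRF9 (0.105) missed the threshold.

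The same compounds at the same doses were next compared without E2, on 8 other PEO1 arrays. limma called 448 genes between 4OHT and ICI (3.74%), 202 higher with 4OHT (1.69%) and 246 lower (2.06%), and 107 with only those arrays in the fit. The count was 220 without ICI array A, 288 without ICI C, 280 without 4OHT B and 258 without 4OHT C. Of the increases 103 genes were called in both comparisons, 55.7% of those with E2 and 51% of those without. Of the decreases 91 were called in both (28.8% and 37%), and 0 genes were called in opposite directions. Both comparisons took each gene's spread from the same fit, so these shares are not from independent tests. HSPA6 gave 1.79 with E2 and 1.78 without, BCL2A1 1.41 and 1.21, FOSB 1.34 and 1.48, CXCL2 0.83 and 0.97, EREG 0.79 and 0.96, and GAS1 -0.53 and -0.50. Other called genes were less alike, such as CALCB at 0.82 and 0.46, EGR3 at 0.61 and 1.11, and E2F8 at -0.40 and -0.23. Immediate early genes had 15 of 25 called higher without E2, NF-kB list genes 14 of 25, and mitosis genes 7 of 21 lower.

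Whether the difference between the compounds depended on E2 was tested directly, as the difference with E2 minus that without. limma called 0 genes, with 505 of 11963 at an unadjusted p under 0.05, and a smallest adjusted p of 0.782 (DRD4, -0.34 ± 0.07). Over the 501 called genes the 95% interval of this quantity had a median half-width of 0.16 before adjustment, and larger dependences such as that of DRD4 were not called either. Of the 501 genes 66 had an unadjusted p under 0.05, but the arrays that chose them also enter this quantity. Of the 20 E2-raised genes higher with 4OHT + E2, 17 were also called higher without E2, and of the 14 E2-lowered genes 11 were also called lower.

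In PEO4 cells, treated in the same way, 4OHT + E2 and ICI + E2 differed for 532 genes (4.45%), 360 higher (3.01%) and 172 lower (1.44%). The count was 1031 without PEO4 0 h array 4 and ICI array 1, whose ACTB 3' minus 5' differences of 2.284 and 3.414 stood apart and which are in neither compared group, and 343 without ICI + E2 array 3. Within the compared PEO4 groups that difference was 0.482 to 1.736 with 4OHT + E2, highest on array 4, and 0.482 to 0.79 with ICI + E2. With it as a covariate 845 genes were called, and its part in single results was not tested. Of the PEO1 increases 90 were called in PEO4, 48.6% of the PEO1 and 25% of the PEO4 list, and of the decreases 42 (13.3% and 24.4%). NAB1, a repressor of EGR factors, was higher in PEO1 and lower in PEO4, and GATA3 and RGS20 were lower in PEO1 and higher in PEO4. Immediate early genes had 19 of 25 called higher in PEO4, NF-kB list genes 12 of 25, MAPK feedback genes 7 of 14, and mitosis genes 8 of 21 lower. FOSB (1.95) and NR4A3 (1.92) had the largest increases in PEO4, and HSPA6 (1.52) and BCL2A1 (1.499) were called there as well.

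A direct test of the difference, PEO4 minus PEO1, called 123 genes (1.03%), 113 with higher values in PEO4 (0.945%) and 10 with lower (0.0836%). The count ranged with the setting, at 52 with only the compared groups in the fit, 72 after quantile normalization and 291 without the PEO4 arrays named above. Leaving out 1 compared array gave 59 (without PEO4 4OHT + E2 3) to 226 (without PEO1 4OHT + E2 C). DUSP4 differed by 1.11 ± 0.13 (adjusted p = 3.44e-07). It stood at 9.44, 9.83, 10.01 and 9.78 with 4OHT + E2 in PEO4, against 8.25, 7.95, 7.95 and 8.19 with ICI + E2, which is 1.68 there and 0.57 in PEO1. RGCC, a regulator of cell cycle and complement responses, gave 1.88 in PEO4 and 0.44 in PEO1 (difference 1.44 ± 0.17). Its PEO1 call failed without ICI + E2 A or B or 4OHT + E2 D (adjusted p = 0.0868, 0.0968 and 0.139). That call also failed after quantile normalization (0.0595), with array weights (0.0542) and with ACTB 3' minus 5' as a covariate (0.0687). With only the compared groups in the fit its adjusted p was 0.129. IER3 gave 1.65 in PEO4 and 0.59 in PEO1 (1.07 ± 0.14), the small GTPase gene GEM 1.62 and 0.66 (0.96 ± 0.12), and the chemokine CXCL8 1.53 and 0.53 (1.00 ± 0.19). NAB1 gave -0.24 in PEO4 and 0.30 in PEO1 (-0.54 ± 0.08, adjusted p = 1.68e-05). ABCA1 and FZD7, lower in PEO1, gave -0.01 and 0.21 in PEO4, not called there, and differed by 0.52 ± 0.12 and 0.59 ± 0.10. HSPA6 did not pass this test (-0.27 ± 0.24, interval -0.74 to 0.20). The list members called here were 5 of 25 immediate early, 7 of 25 NF-kB and 4 of 14 MAPK feedback genes, all higher in PEO4.

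**Figure D5:**
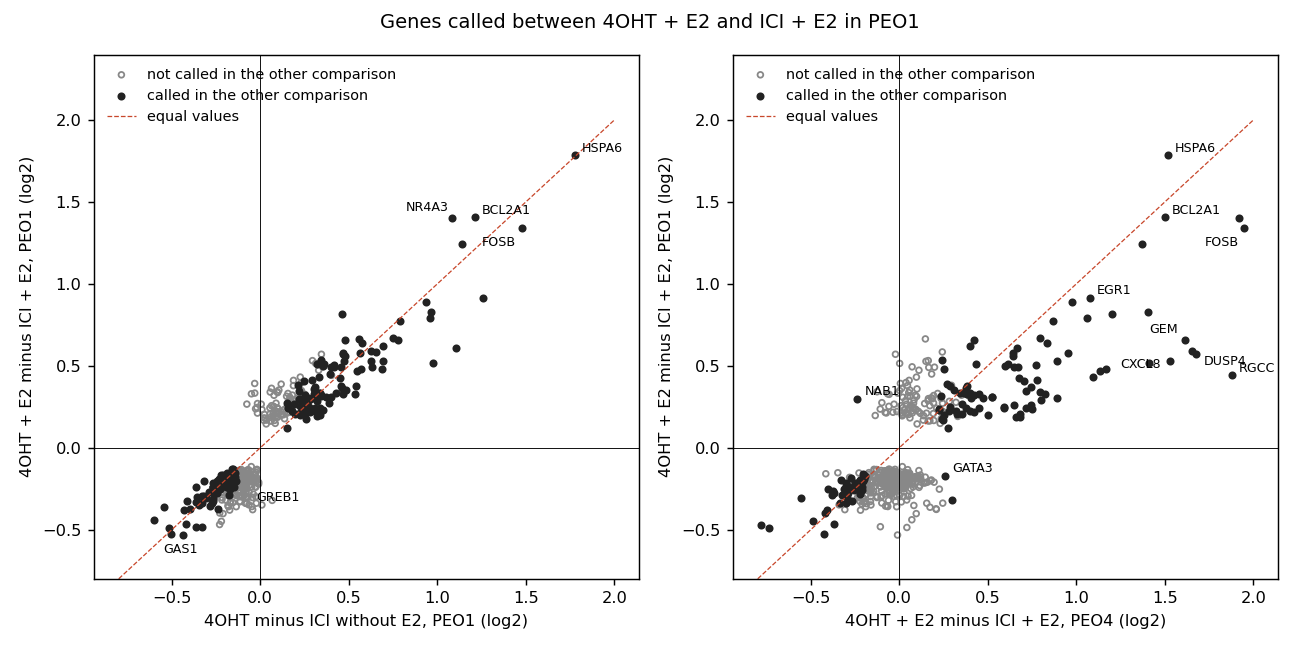
Difference between 4OHT + E2 and ICI + E2 in PEO1 (y axis, log2) for the 501 called genes, against the same pair of compounds without E2 in PEO1 (left, x axis, log2) and with E2 in PEO4 (right). Without E2 larger increases such as HSPA6 (1.78 against 1.79) lie near the dashed line of equal values. Among decreases GAS1 (-0.50 against -0.53) lies near it too, but F2R gave -0.23 against -0.47. Over the 316 called decreases the median without E2 was -0.14. In PEO4 genes such as RGCC (1.88 against 0.44) and DUSP4 (1.68 against 0.57) lie to the right of the line. All genes shown were chosen by the comparison on the y axis.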

How the data were processed

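The authors deposited a table on the log2 scale. Per the submitters' processing notes RMA made it, and its version is not given in the sources used here. The table covers 56 arrays and 22277 probe sets. Medians differed between the lines, which were therefore fitted as normalized apart. The 62 control probe sets were set aside, 19064 probe sets had 1 gene symbol, and the probe set with the highest mean was kept, which left 11963 genes. Probe sets with several symbols (1043) or none (2108) were not tested.

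Each line was fitted with limma 3.58.1 (R 4.3.3), 1 mean per group over 28 arrays with 21 residual degrees of freedom, and the difference between lines in 1 fit over all arrays. All adjusted p-values are Benjamini-Hochberg values from limma, and the code was tested on simulated data. Intervals are 95% intervals. The number of arrays limits the precision, and the median SE of the comparison was 0.063. The lowest correlation of a PEO1 array with a group mate was 0.9968.

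Named genes are the 12 called genes of largest change in each direction whose arrays do not overlap, the called members of each list with the lowest adjusted p (at most 4), GREB1, IGFBP3, ESR1 and PGR, 6 genes per direction for the line difference, and the 10 largest E2 increases and 5 largest decreases. Other list members are given by value. The comparison, the 27 lists and the naming rule were chosen with earlier results of these data known. In PEO4 same-numbered arrays of the compared groups deviated together (correlations 0.12 to 0.33). Values printed for PEO4 come from the fit without a block, and the fit with it is an alternative. Alternatives were a trend and robust variance, dim genes left out, all probe sets, quantile normalization, centring, a replicate block, array weights, only the compared groups, ACTB 3' minus 5' as a covariate, and each array left out. Leaving out both outlying PEO4 arrays was added after seeing the data.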

Additional observations from a re-analysis of the deposited data

Results flagged for a closer look

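Among 178 groups of 4 arrays, for 89 named genes in both compared PEO1 groups, 10 held 1 array far from the other 3, where chance flags about 1 in 20 groups. HSPA6 stood at 6.77 on ICI + E2 array B (the others 7.19 to 7.24), FOS at 8.74 on 4OHT + E2 array D (7.95 to 8.05) and FOSB at 6.62 on ICI + E2 array D (6.30). FZD7 stood at 8.28 on ICI + E2 D, FOXA1 at 7.03 and CADM1 at 9.73 on ICI + E2 B, ARID5B at 8.32 and DLX2 at 10.75 on ICI + E2 C, ARHGAP26 at 8.26 on 4OHT + E2 A and CA12 at 8.81 on 4OHT + E2 D.

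For 20 named genes the difference between 4OHT + E2 and ICI + E2 itself differed between lines (limma, PEO4 minus PEO1). Higher in PEO4 were RGCC (1.44), DUSP4 (1.11), IER3 (1.07), CXCL8 (1.00), GEM (0.96), IL6R (0.89), the small Maf factor MAFF (0.68), CDKN1A (0.59), FZD7 (0.59), APOLD1 (0.58), ABCA1 (0.52), VAV3 (0.51) and GATA3 (0.43). Lower in PEO4 were the receptor phosphatase PTPRO (-0.59), NAB1 (-0.54), the formin DAAM1 (-0.47), PGLYRP4 (-0.47), CRP (-0.45), the homeobox gene MSX2 (-0.40) and KCNF1 (-0.37). Alternatives were run only for the 6 genes per direction with the largest line difference. Of these, PTPRO, DAAM1, PGLYRP4, CRP, MSX2 and IL6R were not called under 5 or more of the alternatives. The line differences of MAFF, CDKN1A, FZD7, APOLD1, ABCA1, VAV3, GATA3 and KCNF1 were not recomputed. Among them KCNF1 (limma adjusted p = 0.0404) and VAV3 (0.0324) lay near the threshold. On PTPRO the PEO1 arrays were uneven, with 12.24, 12.23, 11.49 and 11.53 with 4OHT + E2, against 11.20 to 11.38 with ICI + E2.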

How the results depend on the processing

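For 4OHT + E2 against ICI + E2 in PEO1 (501 genes), the count was 802 with array weights, 89 with the fit limited to the compared groups, and 220 to 1042 with 1 array left out. The shares called higher were 36.9%, 59.9% after quantile normalization and 47% after centring. Without E2 (448 genes) it was 107 with only the compared groups and 220 to 608 with 1 array left out. For the E2 dependence it was 0 under every alternative. In PEO4 (532 genes) it was 1383 with array weights, 845 with ACTB 3' minus 5' as a covariate, 1031 without 0 h array 4 and ICI array 1, and 343 to 586 with 1 array left out, with a share called higher of 67.7% and 54.8% after centring. For the difference between lines (123 genes) it was 185 with dim genes left out, 72 after quantile normalization, 76 after centring, 547 with array weights, 52 with only the compared groups, 291 without both PEO4 arrays, and 59 to 226 with 1 array left out. For E2 against vehicle (250 genes) it was 159 with only the compared groups. For 4OHT + E2 against E2 (1525 genes) it was 497 with only the compared groups and 951 to 2079 with 1 array left out, and for ICI + E2 against E2 (299 genes) no alternative moved it past 1.5 times. Among named genes 1797 values were recomputed, of which 186 fell below the threshold, 6 passed it and 0 reversed. Of the 12 largest increases 10 were called under every alternative that tested them, and of the 12 largest decreases 9, but of all 73 named genes called 35. Named genes left out as dim had no value in that alternative, which was not counted as a lost call. Same-lettered arrays of the compared PEO1 groups correlated at -0.04 to 0.16, so the letters were not taken as pairs. With the replicate block 518 genes were called. In PEO4 the replicate block gave 555, and 137 for the difference between lines. The causes of these shifts were not tested, except that fewer arrays leave fewer degrees of freedom.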
